A study of Mus musculus with 16 samples.

Results

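Cathepsins are the lysosomal peptidases named Cts, and 9 of them were followed here in mouse peritoneal macrophages by gene symbol: Ctsb, Ctsl, Ctss, Ctsk, Ctsh, Ctsc, Ctsz, Ctsd and Ctsa. They are 9 of the 15871 entries in a table of read counts per gene, and all 9 were among the 13527 entries tested. The 9 were chosen from the family with earlier results of these data known. Another 6 cathepsins with an entry are described apart. RNA was sequenced from 16 libraries in 4 groups of 4. H_O macrophages were held in 33 mmol/L glucose with oxidised low-density lipoprotein (ox-LDL), the modified lipoprotein that turns macrophages into lipid-laden foam cells. H_C macrophages were held in the same 33 mmol/L glucose without ox-LDL. L_O macrophages received ox-LDL in low glucose, and L_C macrophages were in low glucose with 27.5 mM mannitol, a sugar alcohol that balances the osmolarity of high glucose. The labels give no concentration for low glucose. Treatment lasted 48 h in every group. All cells came from wild-type C57BL/6 mice aged 8 weeks, whose peritoneal macrophages had been drawn out with an injection of 6% starch. The labels give the ox-LDL dose as 50 mg/ml, and whether that unit is right could not be told.

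Cathepsins are made as inactive precursors, tagged with mannose 6-phosphate in the Golgi, carried to endosomes and lysosomes by mannose 6-phosphate receptors or sortilin, and activated there by cleavage in acid. Most are cysteine peptidases of the papain type, while Ctsd is an aspartic peptidase and Ctsa a serine carboxypeptidase. In macrophages they digest engulfed protein and lipoprotein, trim the invariant chain of MHC class II molecules and, when secreted, cut elastin and collagen, for which they are known in atherosclerotic plaques.

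Library totals lay between 32596640 and 41712885 counts. The 9 cathepsins together took 5.12 to 5.24% of all counts in H_O libraries, 5.63 to 5.75% in H_C, 4.96 to 5.08% in L_O and 4.51 to 5.62% in L_C. The 8 macrophage markers listed, Adgre1 and Csf1r among them, summed to between 17200 and 20700 CPM (counts scaled to the library total with TMM factors) in every library. Most of that sum was Lyz2, which averaged 15890 CPM in H_O, 14733 in H_C, 14476 in L_O and 14097 in L_C. By the test used below, 3 of the 8 rose and 2 fell in H_O against H_C, beside 10.4% and 11.5% of all entries. In L_O against L_C 1 rose and 3 fell, beside 12% and 13.8%. The sum therefore says little about the other markers. Markers of other cells were low: those of B cells, T and NK cells, neutrophils and mast cells each summed to at most 9.73 CPM in any library, of eosinophils to at most 23.6 and of fibroblasts and mesothelium to at most 215. L_C replicate 4 stood apart from the rest: 3.71% of its counts were mitochondrial, against 1.48 to 2.30% in the other 15 libraries, and it had the lowest cathepsin share, 4.51%. Where leaving it out changed the call of a cathepsin or moved its value by over 1.5 times, the value without it is given too. The labels name mannitol for L_C only. If L_O had none, the lack of mannitol and the addition of ox-LDL cannot be told apart in L_O against L_C, nor can osmolarity and glucose in H_O against L_O. Nothing says that the 4 replicates of a group came from separate mice or cultures, so p-values measure the spread between these libraries. In bulk RNA, fewer cells of a type and less RNA per cell cannot be told apart.

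Per kilobase of exon, Ctsd, Ctss and Ctsb led the family in every group. With all annotated exons joined, the level in H_O macrophages was 8372 ± 128 CPM per kb for Ctsd, 6780 ± 576 for Ctss and 2628 ± 39.4 for Ctsb (SD, n = 4). Ctsz followed with 1039 ± 18.6 CPM per kb in H_O macrophages, then Ctsa with 328 ± 9.65 and Ctsl with 182 ± 5.10. The lowest levels per kb in H_O macrophages were those of Ctsk with 127 ± 8.66, Ctsh with 91.1 ± 6.24 and Ctsc with 61.9 ± 6.40. The steps from Ctsd down to Ctsl were all larger than the spread of the libraries.
The top of the order differed without ox-LDL: Ctss and Ctsd were level, at 9221 ± 160 and 9148 ± 199 CPM per kb in H_C macrophages and 8488 ± 726 and 8392 ± 1327 in L_C macrophages. In L_O macrophages Ctsd had 8601 ± 129 CPM per kb and Ctss 5768 ± 158. The bottom of the order differed with glucose. Ctsk ranked above Ctsh and Ctsc in H_O and H_C macrophages, whereas in L_O macrophages Ctsh, Ctsc and Ctsk lay at 83.8 ± 4.92, 76.5 ± 4.14 and 74.8 ± 6.52 CPM per kb, with overlapping libraries. Measured against the length of the principal transcript alone, Ctsd stood above Ctss on average in all 4 groups (9254 and 6795 CPM per kb in H_O, 10111 and 9241 in H_C), Ctsh above Ctsl, and Ctsk below Ctsh. These ranks therefore depend on the exon model.

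**Figure D1:**
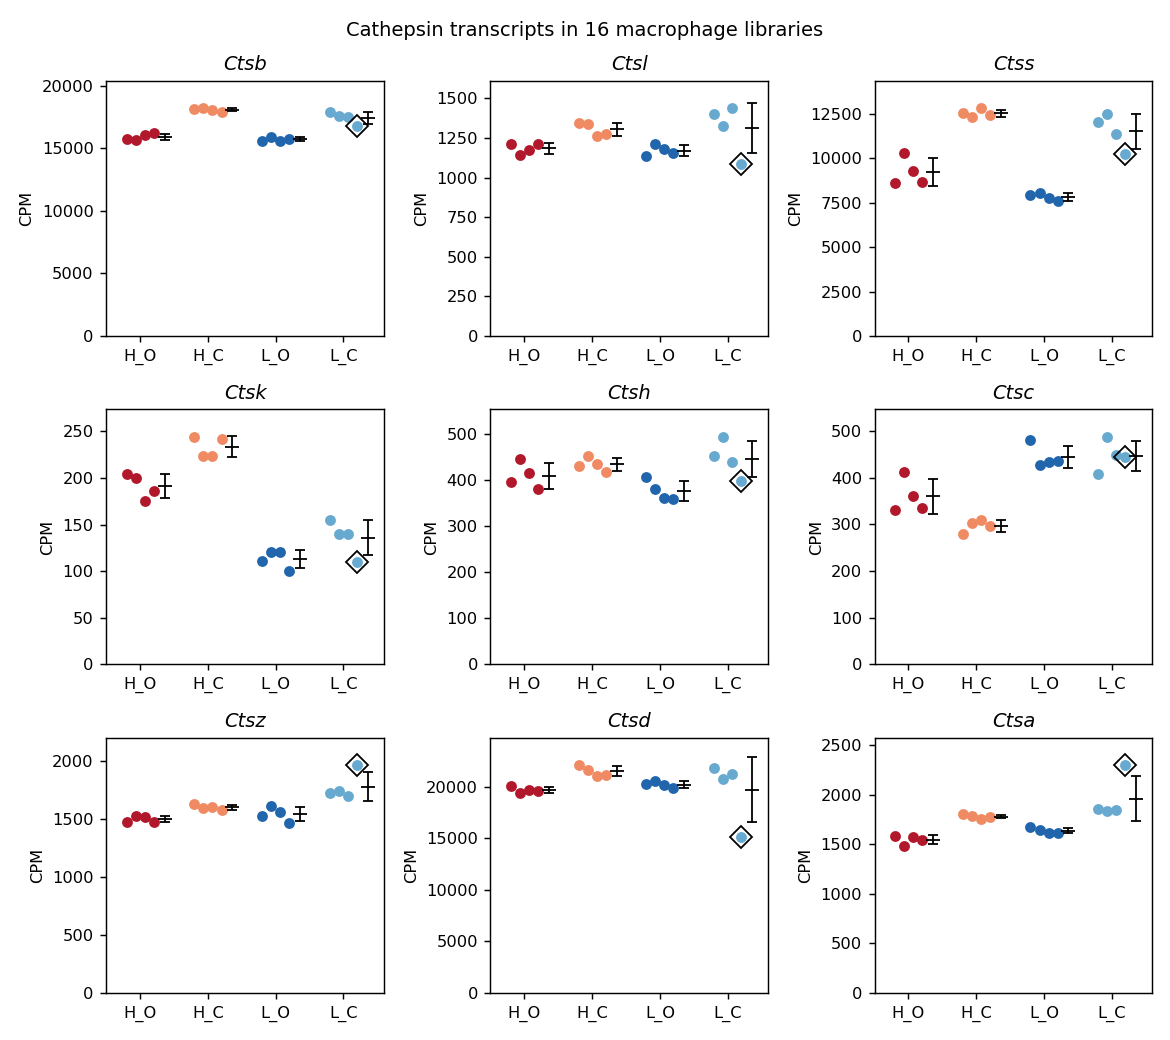
CPM of each cathepsin in all 16 libraries, a panel for each gene, with groups H_O, H_C, L_O and L_C from left to right and a vertical axis that starts at 0. Points are libraries, bars the mean ± SD of 4 libraries, and the open diamond is L_C replicate 4. Ctss is lower in both ox-LDL groups, Ctsk is higher in both high-glucose groups, and L_C replicate 4 lies away from its group for Ctsa, Ctsd and Ctsz.

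With ox-LDL, cathepsins that passed the test were mostly lower, by 1.14- to 1.36-fold in high glucose and 1.11- to 1.47-fold in low glucose, and Ctss moved most. In high glucose, 4 of the 9 fell (Ctss, Ctsk, Ctsa and Ctsb), Ctsc rose, and the other 4 did not pass the threshold, an adjusted p of 0.05 in edgeR's quasi-likelihood test over all entries. Of all tested entries, 11.5% fell and 10.4% rose in H_O against H_C. In low glucose, 6 of the 9 fell (Ctss, Ctsa, Ctsh, Ctsk, Ctsz and Ctsb), set beside 13.8% of all entries, and 0 rose, set beside 12% of all entries. No cathepsin was higher in L_O at an unadjusted p under 0.05 either, nor with DESeq2 or limma-voom. The median log2 fold change of the 9 was -0.14 in H_O against H_C and -0.21 in L_O against L_C, while that of all entries was 0.0089 and 0.00093. By CPM of single libraries, 7 of the 9 lay wholly lower in H_O than in H_C and 1 wholly higher, against 14.8% of all entries each way. In L_O and L_C 4 lay wholly lower, against 13.9% of all entries, and the libraries of the other 5 overlapped.
Without L_C replicate 4, 8 of the 9 fell in L_O against L_C, where 14.5% of all entries then fell. In H_O against H_C, 7 of the 9 fell without that library, where 14.6% of all entries fell. When only the 8 libraries compared were fitted, which also leaves it out of the estimate of the spread, 7 fell, beside 15% of all entries.

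**Figure D2:**
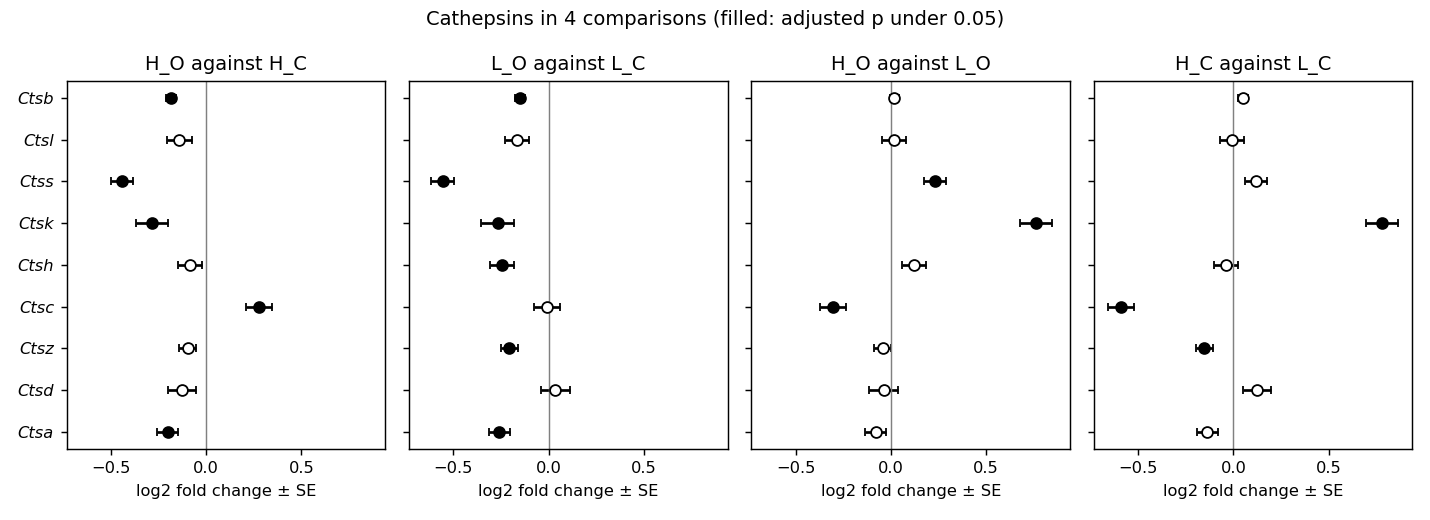
Log2 fold changes ± SE of the 9 cathepsins in H_O against H_C, L_O against L_C, H_O against L_O and H_C against L_C, from edgeR's quasi-likelihood fit over all 16 libraries. Filled points passed an adjusted p of 0.05. Most points of both ox-LDL panels lie left of 0 with Ctss farthest, at -0.44 and -0.56, and in both glucose panels Ctsk lies farthest right, at 0.76 and 0.78, and Ctsc farthest left, at -0.30 and -0.59.

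Ctss, the cysteine endopeptidase that cleaves the invariant chain of MHC class II in antigen-presenting cells and stays active at neutral pH, fell with ox-LDL in both glucose conditions. It had 8600, 10278, 9305 and 8647 CPM in H_O libraries and 12545, 12298, 12810 and 12435 CPM in H_C libraries. Every H_O library was below every H_C library. The difference was -0.44 ± 0.058 on the log2 scale (SE, adjusted p = 1.38e-05 in edgeR's quasi-likelihood test, n = 4 and 4), or 1.36-fold lower in H_O.
In low glucose Ctss had 7950, 8059, 7744 and 7577 CPM in L_O libraries and 12045, 12487, 11351 and 10226 CPM in L_C libraries. These groups did not overlap either, with L_C replicate 4 the lowest of its group. Ctss was 1.47-fold lower in L_O (log2 fold change -0.56 ± 0.058, edgeR adjusted p = 8.2e-07), and over all alternatives tried the log2 fold change stayed between -0.61 and -0.47. Its call held under every alternative in both glucose conditions.
Some markers of monocytes and small peritoneal macrophages were lower in the same groups. Of the 8 genes listed, 3 fell in H_O against H_C and 5 fell in L_O against L_C, beside 11.5% and 13.8% of all entries. All 8 lay below 0 in both comparisons. Among those that fell was Itgax (CD11c), by 1.03 and 1.01 on the log2 scale. The summed level of the 8 was 367 to 407 CPM in H_O, 762 to 796 in H_C, 482 to 526 in L_O and 993 to 1070 in L_C. Most of that sum was Itgax, which averaged 291, 596, 380 and 767 CPM in these groups, followed by Clec12a with 83.3, 166, 108 and 243. The sum therefore says little about the other markers. Ccr2 averaged 2.27, 4.65, 2.83 and 8.08 CPM in the same groups, and Irf4 2.34, 2.45, 3.54 and 3.58. The 6 dendritic cell markers with an entry summed to at most 15.6 CPM in any library, with Flt3 and Siglech without an entry. Of 10 markers of large peritoneal macrophages, 5 fell in each ox-LDL comparison, beside 11.5% and 13.8% of all entries, with medians of -0.73 and -0.97. Timd4 fell by 1.20 and 1.84 from a low level, with averages of 0.335, 0.772, 0.567 and 2.04 CPM in H_O, H_C, L_O and L_C. In L_O against L_C 1 (Cd93) rose, beside 12% of all entries. Their summed level was 1260 to 1360 CPM in H_O, 1360 to 1430 in H_C, 1370 to 1440 in L_O and 1290 to 1480 in L_C. Most of that sum was Cd93, which averaged 1212, 1189, 1301 and 1150 CPM in these groups, so the sum says little about the other markers. F10, for example, averaged 71.8, 158, 75.7 and 169 CPM. Siglecf, listed as an eosinophil marker, fell by 2.07 in both, and its list summed to 4.7 to 5.76 CPM in H_O, 19.6 to 23.6 in H_C, 3.69 to 4.98 in L_O and 14.2 to 20.7 in L_C, while the eosinophil granule genes Prg2 and Epx had no entry. The part of a changed cell mixture in the Ctss result was not tested.

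Ctsk, the collagen-cleaving peptidase best known from bone-resorbing osteoclasts, lies beside Ctss on chromosome 3, with 17.4 kb between the genes. In mm10 with GENCODE M21, Ctsk spans chr3:95499256-95509362 and Ctss chr3:95526786-95556403, both on the plus strand. Because the 2 genes are neighbours, the bases upstream of both start sites are shown side by side, from RefSeq on GRCm38.p6, plus strand, 5′ to 3′, chr3:95526536-95526785 for Ctss and chr3:95498960-95499209 for Ctsk.
Ctss upstream: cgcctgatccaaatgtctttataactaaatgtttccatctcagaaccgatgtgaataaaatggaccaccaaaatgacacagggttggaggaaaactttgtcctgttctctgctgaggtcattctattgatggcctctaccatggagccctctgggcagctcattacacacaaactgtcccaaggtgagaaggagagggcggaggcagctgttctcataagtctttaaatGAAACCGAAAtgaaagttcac
Ctsk upstream: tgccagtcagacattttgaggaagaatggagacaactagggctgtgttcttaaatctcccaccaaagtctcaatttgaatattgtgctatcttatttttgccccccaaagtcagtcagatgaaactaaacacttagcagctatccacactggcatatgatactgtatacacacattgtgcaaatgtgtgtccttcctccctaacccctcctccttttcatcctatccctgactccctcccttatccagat
Capitals in the Ctss run mark 2 blocks of GAAA with 2 bases between them, as in an interferon-stimulated response element, which begin at position -21 from the start site. Among all 32851 RefSeq promoters of 300 bases, 3.44% hold these letters on either strand. The Ctsk window holds none of the 5 motifs searched on both strands. These were the GAAA repeat, CACGTG (in 7.15% of promoters), CATGTG (in 14.2%), TGAGTCA (in 5.2%) and GAGGAAGT (in 3.2%), none of which contains another. CACGTG, the core bound by TFEB and its relatives, is in the windows of Ctsd and Ctsl, and CATGTG in that of Ctss. Ctsa has 2 windows. The one at its annotated gene start holds none of the motifs, and the other, chr2:164833523-164833822, which lies inside the gene, holds CACGTG and CATGTG. Windows of 7 of the 9 cathepsins were matched, and a match in letters is a description, not evidence of binding.

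Ctsk had 204, 201, 176 and 186 CPM in H_O libraries and 244, 224, 224 and 242 CPM in H_C libraries, with every H_O library lower. The log2 fold change was -0.29 ± 0.085 (edgeR adjusted p = 0.0202). In low glucose Ctsk had 111, 120, 121 and 99.96 CPM in L_O libraries and 155, 140, 140 and 110 CPM in L_C libraries. The groups overlapped through L_C replicate 4, the lowest L_C library, and the log2 fold change was -0.27 ± 0.085 (edgeR adjusted p = 0.0267). Both ox-LDL calls of Ctsk were near the threshold and were lost when counts were scaled to library totals alone (adjusted p = 0.0869 and 0.135, the highest over all alternatives, with 0.000368 and 0.000259 the lowest). In low glucose the call was also lost when only the 8 libraries compared were fitted (adjusted p = 0.0897). Leaving out single libraries also ended them: H_O replicate 3 or 4 or H_C replicate 1 or 4 in high glucose, and L_O replicate 1 or 4 or L_C replicate 1, 2 or 3 in low glucose, with an adjusted p of up to 0.0743 and 0.1. Without L_C replicate 4 the low-glucose change was -0.36 (edgeR adjusted p = 0.000259).
Some osteoclast markers were lower in the same groups. Of 6 osteoclast markers tested, Acp5, Atp6v0d2 and Itgb3 fell in both, beside 11.5% and 13.8% of all entries. Acp5 (tartrate-resistant acid phosphatase) fell by 1.17 and 1.20 on the log2 scale. The other 3 did not pass in either, and 2 of the 6 lay above 0 in H_O against H_C and 0 in L_O against L_C. Oscar had 0 to 2 counts in any library and Calcr had no entry. The summed level of the list was 674 to 766 CPM in H_O, 1180 to 1210 in H_C, 805 to 835 in L_O and 1300 to 1500 in L_C. Most of that sum was Atp6v0d2, which averaged 623, 1057, 709 and 1198 CPM in these groups. The part of these markers in the Ctsk result was not tested.

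Ctsb, a cysteine peptidase that also works as a dipeptidyl carboxypeptidase and can leak from damaged lysosomes, lies at chr14:63122462-63145923 in mm10 (plus strand). It had 15759, 15658, 16023 and 16177 CPM in H_O libraries and 18139, 18183, 18055 and 17904 CPM in H_C libraries. In low glucose the libraries had 15574, 15930, 15589 and 15749 CPM with ox-LDL (L_O) and 17893, 17564, 17470 and 16792 CPM without it (L_C). Neither pair of groups overlapped. The log2 fold change was -0.18 ± 0.026 in H_O against H_C (edgeR adjusted p = 3.92e-05) and -0.15 ± 0.026 in L_O against L_C (edgeR adjusted p = 0.000293). In low glucose the call was lost with library totals alone, at -0.07 and an adjusted p of 0.119, the highest over all alternatives (the lowest was 1.19e-08). Exons of the squalene synthase gene Fdft1 share 12.1% of the 50-base exon stretches of Ctsb, on the opposite strand, and the strand setting of the counts was not given. Fdft1 fell too, and averaged 15.3 CPM in H_O, 27.7 in H_C, 16.6 in L_O and 30.8 in L_C. How reads in the shared stretches were counted is not known, and their part in the Ctsb result was not tested.

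Ctsl, the endopeptidase that processes the invariant chain in thymic epithelium of mice, lies at chr13:64359337-64370890 (minus strand). It averaged 1184 ± 33.1 CPM in H_O and 1306 ± 41.5 in H_C (SD, n = 4 each). In low glucose it averaged 1170 ± 34.2 CPM in L_O and 1313 ± 159 in L_C. Neither difference passed the threshold, at -0.14 ± 0.064 (edgeR adjusted p = 0.135) and -0.17 ± 0.064 (edgeR adjusted p = 0.0654), although all 4 H_O libraries were below all 4 H_C libraries. Its L_C libraries had 1404, 1326, 1437 and 1084 CPM, with replicate 4 the lowest. Without that library Ctsl passed in both, at -0.25 in low glucose (edgeR adjusted p = 1.25e-05) and with an adjusted p of 0.00193 in high glucose, the lowest of ranges that ran up to 0.403 and 0.494. Of the 50-base exon stretches of Ctsl, 26.3% are shared with other genes, mostly the annotated genes Gm47123, on the opposite strand, and Gm49230. How reads in such stretches were counted was not given, so the effect on the counts of Ctsl is not known.

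Ctsc, dipeptidyl peptidase I, which activates the granule serine proteases of leukocytes, was the only member of the 9 that rose in an ox-LDL comparison. It had 331, 412, 361 and 335 CPM in H_O libraries and 278, 302, 309 and 297 CPM in H_C libraries. All H_O libraries were above all H_C libraries, with a log2 fold change of 0.28 ± 0.067 (edgeR adjusted p = 0.00539). In low glucose Ctsc had 480, 427, 434 and 436 CPM in L_O libraries and 407, 487, 448 and 444 CPM in L_C libraries. These groups overlapped, and the log2 fold change was -0.01 ± 0.067 with a 95% interval of -0.15 to 0.13 (edgeR adjusted p = 0.952). Its upstream bases are given for its pattern apart from the other members, from RefSeq on GRCm38.p6, plus strand, chr7:88277835-88278023.
Ctsc upstream: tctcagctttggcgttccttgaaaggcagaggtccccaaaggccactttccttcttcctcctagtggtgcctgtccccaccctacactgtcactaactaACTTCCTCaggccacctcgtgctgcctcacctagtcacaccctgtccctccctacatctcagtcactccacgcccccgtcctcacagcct
Capitals mark GAGGAAGT read on the opposite strand, letters of the kind bound by the macrophage factor PU.1. They start at position -151, counted from the start site of the RefSeq window, which is also the gene's first base below. The printed run stops short of that site, because RefSeq's gene begins at the next base after the run. The same letters are on the opposite strand of the Ctss window at position -2. The gene spans chr7:88278085-88310888 in mm10.

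Ctsh, an aminopeptidase encoded at chr9:90054152-90076089 (plus strand), averaged 410 ± 28.1 CPM in H_O and 435 ± 14.6 in H_C, which overlapped (log2 fold change -0.09 ± 0.062, edgeR adjusted p = 0.387). In low glucose it had 407, 380, 361 and 359 CPM in L_O libraries and 453, 495, 440 and 399 CPM in L_C libraries. The overlap came from L_O replicate 1 and L_C replicate 4. Ctsh fell there by 0.24 ± 0.062 on the log2 scale (edgeR adjusted p = 0.00669), a call lost with library totals alone (adjusted p = 0.072, the highest over all alternatives, with 6.72e-05 the lowest).
Ctsz, a carboxypeptidase also called cathepsin X, is encoded at chr2:174427493-174439039 (minus strand). It averaged 1497 ± 26.8 CPM in H_O and 1602 ± 20.2 in H_C, without overlap but not past the threshold (-0.10 ± 0.044, edgeR adjusted p = 0.132). Its libraries had 1528, 1614, 1562 and 1470 CPM in L_O and 1721, 1740, 1698 and 1964 CPM in L_C, where replicate 4 was the highest. Ctsz fell in L_O by 0.21 ± 0.044 (edgeR adjusted p = 0.00166). Without L_C replicate 4 it fell in both comparisons, by 0.15 in low glucose and with an adjusted p of 0.00813 in high glucose, where all alternatives ran from 0.00423 to 0.594.

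Ctsd, the aspartic endopeptidase that degrades bulk protein in lysosomes, is encoded at chr7:142375911-142388038 (minus strand) and did not pass the threshold in any comparison. It had 20099, 19382, 19665 and 19589 CPM in H_O libraries and 22090, 21675, 21094 and 21166 CPM in H_C libraries. The groups were apart, but the log2 fold change of -0.13 ± 0.075 did not pass (edgeR adjusted p = 0.269). In low glucose Ctsd had 20283, 20584, 20166 and 19848 CPM in L_O libraries and 21785, 20767, 21278 and 15091 CPM in L_C libraries. L_C replicate 4 was below all others, and the log2 fold change of 0.04 ± 0.075 (edgeR adjusted p = 0.785) turned to -0.07 without it (edgeR adjusted p = 0.0127, the lowest of a range up to 0.869). In H_O against H_C the adjusted p of Ctsd was 4.03e-05 once that library was left out, with 0.647 the highest. The annotated gene Gm49369, on the same strand, shares 32.4% of the 50-base exon stretches of Ctsd, so its counts may be split.

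Ctsa, the serine carboxypeptidase that also shields neuraminidase 1 and beta-galactosidase from breakdown, is encoded at chr2:164832873-164841032 (plus strand) and fell in both. It had 1586, 1483, 1571 and 1545 CPM in H_O libraries and 1801, 1783, 1758 and 1774 CPM in H_C libraries. Its L_O libraries had 1671, 1642, 1614 and 1616 CPM and its L_C libraries 1856, 1832, 1846 and 2296 CPM. Neither pair overlapped, and L_C replicate 4 was the highest library of all 16. The log2 fold change was -0.20 ± 0.056 in H_O against H_C (edgeR adjusted p = 0.0138) and -0.26 ± 0.056 in L_O against L_C (edgeR adjusted p = 0.00199). Without L_C replicate 4 the low-glucose change was -0.17. Pltp and Neurl2 lie on the opposite strand and the stretches of Ctsa shared with other genes were 11.6% of all. Pltp lay between 215 and 262 CPM in H_O libraries, 236 and 261 in H_C, 214 and 243 in L_O and 181 and 281 in L_C.

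**Figure D3:**
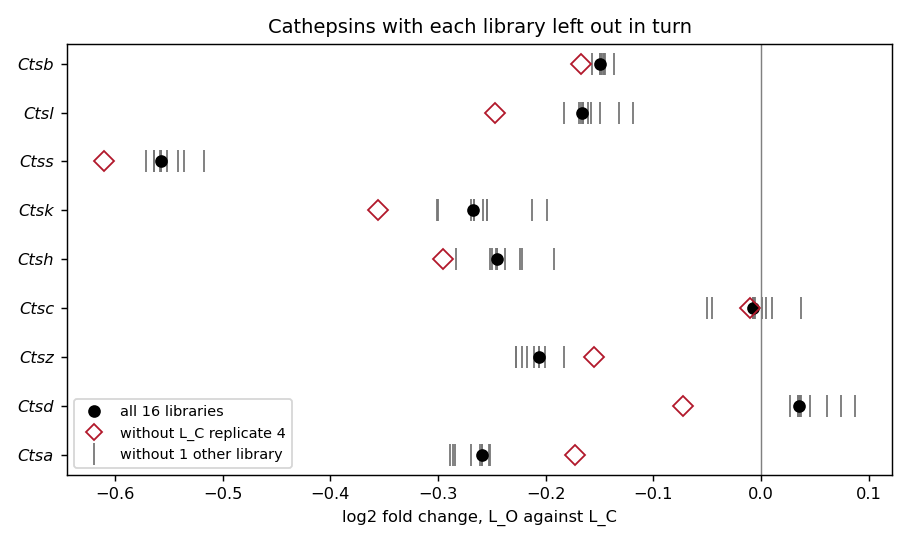
Log2 fold change in L_O against L_C of each cathepsin, refitted with each of the 16 libraries left out in turn, with the red diamond for the fit without L_C replicate 4. Ctss stays between -0.61 and -0.52, while Ctsd lies above 0 in all fits except the fit without L_C replicate 4, where it is at -0.07.

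Ctsk was higher in high glucose with and without ox-LDL, and Ctsc was lower in both. Ctsk moved by more, at 1.7- and 1.72-fold, than any member did with ox-LDL. In each glucose comparison 3 of the 9 passed. With ox-LDL, 2 rose (Ctsk and Ctss) and 1 fell (Ctsc) in H_O against L_O, where 2.71% of all entries rose and 3.39% fell. Without ox-LDL, 1 rose (Ctsk) and 2 fell (Ctsc and Ctsz) in H_C against L_C, where 5.02% of all entries rose and 7.75% fell. The median log2 fold change of the 9 was 0.02 in H_O against L_O and -0.01 in H_C against L_C, near those of all entries, 0.0030 and -0.0045. By CPM of single libraries, 2 lay wholly higher in H_O than in L_O (Ctsk and Ctss) and 2 wholly lower (Ctsa and Ctsc), against 8.18% and 9.52% of all entries. In H_C 2 lay wholly above L_C (Ctsk and Ctsb) and 3 wholly below it (Ctsa, Ctsc and Ctsz), against 7.58% and 9.82% of all entries.

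Ctsk showed the largest glucose differences of the family. The H_O libraries, 176 to 204 CPM, were all above the L_O libraries, 99.96 to 121 CPM. Its log2 fold change was 0.76 ± 0.085, or 1.7-fold higher in H_O (edgeR adjusted p = 3.49e-05), and it ranked 24 among all tested entries by p. The H_C libraries, 224 to 244 CPM, were likewise all above the L_C libraries, 110 to 155 CPM. There Ctsk was 1.72-fold higher (log2 fold change 0.78 ± 0.085, edgeR adjusted p = 1.26e-05). Without L_C replicate 4 the change was 0.69. Of the 6 osteoclast markers tested, 2 fell in each glucose comparison, beside 3.39% of all entries with ox-LDL and 7.75% without it. Itgb3 (integrin beta 3) fell by 0.77 with ox-LDL and 0.57 without it, and 0 of the 6 rose in edgeR, DESeq2 or limma-voom. At an unadjusted p under 0.05 in edgeR, 1 was higher in H_O than in L_O and 0 were higher in H_C than in L_C.
Markers of fibroblasts, which also make Ctsk, and of mesothelium were compared in the same way. Of the 8 tested in H_O against L_O, 0 passed in edgeR, 4 were higher at an unadjusted p under 0.05, 2 of 9 passed as higher with DESeq2, and 3 lay wholly higher, with a median log2 fold change of 1.04. In H_C against L_C all 8 were above 0, with a median of 0.35, and 0 passed in edgeR, DESeq2 or limma-voom (0 at an unadjusted p under 0.05 in edgeR). The summed level of the 9 listed was 38.3 to 110 CPM in H_O, 40.3 to 215 in H_C, 25.2 to 39.2 in L_O and 60.7 to 84.7 in L_C. Col1a1 averaged 22.5 ± 9.76 CPM in H_O, 22.8 ± 23.6 in H_C, 7.44 ± 2.42 in L_O and 18.4 ± 3.91 in L_C (SD, n = 4). Its highest H_C library had 58.2 CPM, and its median was 11.4 CPM in H_C and 19.1 in L_C. By median, Col1a2 (15.9 and 27.6 CPM) and Dcn (5.55 and 7.61 CPM) were also lower in H_C than in L_C. So were Col3a1 (3.67 and 6.33 CPM), Pdgfra (9.25 and 10.3 CPM), Upk3b (0.93 and 1.28 CPM) and Krt19 (0.31 and 0.37 CPM). Only Msln (0.42 and 0.15 CPM) was higher. The part of these cells in the Ctsk result was not tested.

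Ctsc was lower in high glucose. Its H_O libraries, 331 to 412 CPM, were all below the L_O libraries, 427 to 480 CPM (log2 fold change -0.30 ± 0.067, edgeR adjusted p = 0.0102). The H_C libraries, 278 to 309 CPM, were all below the L_C libraries, 407 to 487 CPM, 1.51-fold lower (log2 fold change -0.59 ± 0.067, edgeR adjusted p = 2.02e-05). Ctsc kept both calls under every alternative.
Ctss was higher in H_O than in L_O by 0.23 ± 0.058 on the log2 scale (edgeR adjusted p = 0.0203), and its 4 H_O libraries were all above the 4 L_O libraries. That call was lost without H_O replicate 2 or 3 or without L_O replicate 3 or 4, with an adjusted p of up to 0.0698. In H_C against L_C the difference of Ctss was 0.12 ± 0.058, with a 95% interval of -0.002 to 0.24 (edgeR adjusted p = 0.194). It was 0.066 ± 0.046 without L_C replicate 4 (edgeR adjusted p = 0.387).
Ctsz was 0.15 ± 0.044 lower in H_C than in L_C on the log2 scale (1.11-fold, edgeR adjusted p = 0.0278). That call was lost when any H_C library was left out, with library totals alone and with the 8 libraries compared only, with an adjusted p of up to 0.131. Without L_C replicate 4 the difference of Ctsz was -0.10 (edgeR adjusted p = 0.018). The other members, Ctsa, Ctsb, Ctsd, Ctsh and Ctsl, did not pass in either glucose comparison. Their log2 fold changes lay between -0.08 and 0.12 in H_O against L_O and between -0.14 and 0.12 in H_C against L_C. Both ends of the H_C range rest on L_C replicate 4: without it the 5 lay between -0.09 and 0.03, Ctsa at -0.05 and Ctsd at 0.015. Ctsa passed in H_O against L_O without L_C replicate 4 (edgeR adjusted p = 0.0256, the lowest of a range up to 0.695). The comparisons with and without ox-LDL share no libraries, but H_O against H_C shares H_O with H_O against L_O, and likewise for the other groups.

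Whether glucose changed the ox-LDL response was tested by the difference between both ox-LDL contrasts. None of the 9 passed in edgeR, where 0.0148% of all entries did, and none passed with DESeq2 or limma-voom. Ctsc was the only member with an unadjusted p under 0.05 in edgeR over all 16 libraries: its ox-LDL change was 0.28 ± 0.095 larger in high glucose, with a 95% interval of 0.085 to 0.485 (unadjusted p = 0.00778, adjusted p = 0.358 in edgeR). For Ctss the interval of the difference ran from -0.058 to 0.285 and for Ctsk from -0.27 to 0.235. The other 6 differences lay between -0.16 and 0.16. With L_C replicate 4 left out the difference was 0.29 ± 0.092 for Ctsc, 0.17 ± 0.063 for Ctss and 0.07 ± 0.087 for Ctsk, and between -0.05 and 0.21 for the other 6. None of the 9 passed then either, with edgeR adjusted p-values from 0.221 to 0.876, while 0.299% of all entries passed with a positive and 0.0874% with a negative difference.

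Genes whose levels ran most like those of a cathepsin were ranked by the root mean square difference of centred log2 CPM over the 16 libraries, among 8500 entries with a mean log2 CPM of at least 3. Among the 3 nearest to Ctss were Csf1r (the receptor of macrophage colony-stimulating factor, 0.0686) and Slfn2 (0.0793). Csf1r averaged 636 ± 23.4 CPM in H_O, 877 ± 19.2 in H_C, 580 ± 24.2 in L_O and 816 ± 36.2 in L_C, with both ox-LDL groups below their controls, as for Ctss. Over the 15 libraries other than L_C replicate 4, Slfn2, Cst3 and Npc2 were nearest to Ctss. The distances were larger for Ctsk, whose nearest were Arhgap22 (0.124), Btg2 (0.143) and Slc8b1 (0.164). Nearest to Ctsc were Tifab (0.103), Nlrp3 (0.114) and Zdhhc21 (0.115), and without L_C replicate 4 the macrophage marker Adgre1 (F4/80) was nearest (0.0840). Lamp1, a lysosomal membrane protein, was nearest to Ctsa (0.0345) and Chmp4b to Ctsz (0.031). For Ctsb, Ctsd, Ctsh and Ctsl the nearest were Eif4ebp2 (0.0403), Fundc2 (0.0377), Ggh (0.0611) and Lat2 (0.0485).

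Genes that carry cathepsins to the lysosome, inhibit them or work beside them moved in both directions with ox-LDL. Their counts stand beside the shares of all entries, of which 10.4% rose and 11.5% fell in H_O against H_C and 12% rose and 13.8% fell in L_O against L_C. Genes of these lists that did not pass over all 16 libraries were not followed by name without L_C replicate 4. Among 11 genes of lysosomal enzyme sorting, 3 rose and 1 fell in each ox-LDL comparison, with medians of 0.09 in high and 0.05 in low glucose. Sort1 (sortilin) rose by 0.41 ± 0.045 in H_O against H_C and 0.53 ± 0.045 in L_O against L_C. Scarb2 (LIMP-2, the carrier of glucocerebrosidase) rose by 0.48 ± 0.045 and 0.49 ± 0.045, with 386 to 406 CPM in H_O, 276 to 290 in H_C, 379 to 385 in L_O and 244 to 290 in L_C. Both genes lay apart between the groups in each comparison.
Gga2, an adaptor for the mannose 6-phosphate receptors, rose by 0.27 and 0.41, the call in high glucose (edgeR adjusted p = 0.0472) being lost under 18 alternatives. Gnptab, which encodes subunits of the enzyme that starts the mannose 6-phosphate tag, fell by 0.28 ± 0.061 and 0.35 ± 0.061. The receptors themselves, Igf2r and M6pr, did not pass over all 16 libraries. Their H_O and H_C libraries did not overlap, as for 14.8% of all entries each way. M6pr had 330 to 356 CPM in H_O and 309 to 326 in H_C, and Igf2r 699 to 721 and 737 to 784. In limma-voom with array quality weights, 4 of the 11 sorting genes rose and 2 fell in H_O against H_C, where 4152 of all entries passed. Igf2r averaged 708 CPM in H_O, 753 in H_C, 720 in L_O and 729 in L_C.

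Of the cystatins, the inhibitors of cysteine cathepsins, 3 were tested. Cst3, the main secreted inhibitor, fell by 0.47 ± 0.081 (edgeR adjusted p = 0.000255) and 0.50 ± 0.081 (edgeR adjusted p = 0.00013). It averaged 414 ± 14.4 CPM in H_O, 574 ± 22.0 in H_C, 346 ± 16.1 in L_O and 489 ± 75.4 in L_C. Cstb, the cytosolic inhibitor, averaged 343 CPM in H_O, 355 in H_C, 358 in L_O and 370 in L_C and did not pass.
Of the MiT factors, which drive lysosomal genes, Tfeb fell by 0.33 ± 0.056 and 0.38 ± 0.055 and Mitf by 0.33 ± 0.058 and 0.41 ± 0.058, while Tfec rose by 0.26 ± 0.081 and 0.54 ± 0.081. Tfe3 did not pass over all 16 libraries. Its H_O libraries, 118 to 129 CPM, were all above its H_C libraries, 112 to 118 CPM. Its L_C libraries ran from 114 to 152 CPM. In limma-voom with array quality weights, 2 of the 4 MiT factors rose and 2 fell in H_O against H_C. The Tfec call in high glucose was lost without H_O replicate 1, 3 or 4 or H_C replicate 1, 3 or 4. Tfeb and Mitf also fell in H_C against L_C, by 0.23 and 0.19, the Tfeb call being lost under 2 alternatives and the Mitf call under 8. Mitf was at -0.15 without L_C replicate 4 (edgeR adjusted p = 0.0581).

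Among 4 further cathepsins tested, Ctse, an intracellular aspartic peptidase of immune cells, fell by 1.26 ± 0.21 and 1.16 ± 0.21 from a low level. It averaged 2.51 CPM in H_O, 6.04 in H_C, 3.27 in L_O and 7.31 in L_C. Ctso fell in H_O against L_O by 0.26 ± 0.050 and in H_O against H_C by 0.14 ± 0.050, the call in H_O against H_C (edgeR adjusted p = 0.0485) being lost under 16 alternatives. Ctsf and Ctsw did not pass in any comparison, and Ctsj and Ctsq had at most 11 and 8 counts in a library and were not tested.
Of 9 other peptidases tested, mostly lysosomal but with the cytosolic Tpp2 and the cell-surface Dpp4 among them, 1 rose and 3 fell in H_O against H_C and 1 rose and 4 fell in L_O against L_C. Their median log2 fold changes were -0.004 and -0.22, and those of all entries 0.0089 and 0.00093. Prcp, a carboxypeptidase that inactivates angiotensin II, fell by 0.53 ± 0.077 and 0.51 ± 0.077, and Napsa, an aspartic peptidase related to Ctsd, by 0.53 ± 0.090 in both. Dpp7 (dipeptidyl peptidase II) rose by 0.22 ± 0.071 and 0.38 ± 0.072 and was also higher in high glucose, by 0.27 with ox-LDL and 0.42 without it. Its calls in H_O against H_C and in H_O against L_O were lost in 7 and 6 fits that left out a library. Dpp7 averaged 123 CPM in H_O, 106 in H_C, 102 in L_O and 78.7 in L_C.
Neu1, the neuraminidase that Ctsa protects, rose by 0.21 ± 0.035 and 0.19 ± 0.035 while Ctsa fell. It averaged 164 ± 5.26 CPM in H_O, 142 ± 1.75 in H_C, 154 ± 2.20 in L_O and 135 ± 1.23 in L_C. Glb1 (beta-galactosidase), the other partner of Ctsa, did not pass with ox-LDL and was 0.14 ± 0.038 higher in H_O than in L_O, a call lost in 6 fits that left out a library.

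The 3 cathepsin substrates listed all fell with ox-LDL. Cd74, the invariant chain that Ctss trims, fell by 0.87 ± 0.16 in H_O against H_C and 1.82 ± 0.16 in L_O against L_C. It averaged 1120 ± 324 CPM in H_O, 2060 ± 107 in H_C, 938 ± 118 in L_O and 3320 ± 663 in L_C, and it fell in H_C against L_C by 0.69 ± 0.16. The ox-LDL responses of Cd74 differed by 0.95 ± 0.22 between high and low glucose, short of the threshold (edgeR adjusted p = 0.118). Psap, the precursor of the saposins, fell by 0.15 ± 0.027 and 0.11 ± 0.027, and Grn (progranulin) by 0.10 ± 0.035 and 0.20 ± 0.035. The Psap call in low glucose was lost with library totals alone, and the Grn call in high glucose had an edgeR adjusted p of 0.0489 and was lost under 17 alternatives.

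**Figure D4:**
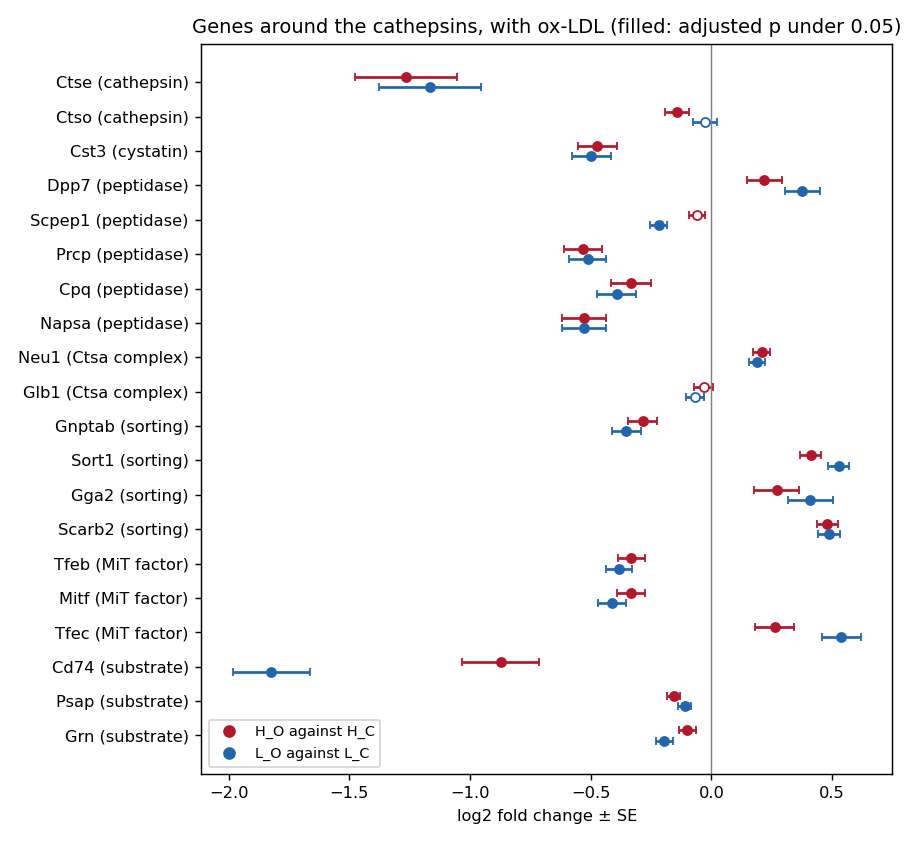
Log2 fold changes ± SE of 20 genes that sort, inhibit, regulate or work beside cathepsins, in H_O against H_C (red) and L_O against L_C (blue). Filled points passed an adjusted p of 0.05. Sort1, Scarb2, Neu1, Dpp7 and Tfec lie above 0 in both, and Cst3, Prcp, Napsa, Tfeb, Mitf, Ctse and Cd74 below 0.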

How the data were processed

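RNA was sequenced from starch-elicited mouse peritoneal macrophages in 16 libraries, 4 each of H_O, H_C, L_O and L_C. The authors deposited a table of read counts per gene, whole numbers with unequal totals. HISAT2, DESeq2 and mm10 are named, per the submitters' processing notes, without versions; how reads were counted, on which annotation and by strand or not, is not given in the sources used here. Members were matched by symbol; members, lists and tests were chosen with earlier results of these data known.

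Counts were tested in R 4.3.3 with edgeR 4.0.16 by the quasi-likelihood F test (two-sided, TMM, filterByExpr by group, a mean for each group, 12 residual degrees of freedom), with Benjamini-Hochberg adjustment over 13527 entries and a threshold of 0.05; 2344 entries were not tested. CPM used TMM factors, and log2 CPM a prior count of 2. Named genes are the 9 members, members of pathway lists past the threshold in a contrast, and the 3 entries nearest each member, of which 1 is not reported here. Other names were chosen after their values were seen. Exon lengths and positions are from GENCODE M21, and promoters from RefSeq (GRCm38.p6). The fit was tested on simulated counts, with changes set in entries drawn at random from all levels. Of log2 changes of 1 it recovered 76.5% in L_O against L_C and 74.5% in H_O against H_C. Of changes of 0.5 it recovered 45.9% and 51%, and 2.44% and 3.91% of the calls were false. Many smaller changes are thus missed, and the share at the levels of the cathepsins was not tested. Alternatives were other scalings and filters, a replicate block, DESeq2 1.42.0, limma-voom (limma 3.58.1), the 8 libraries compared only, and each library left out. Limma-voom with array quality weights, a length by principal transcript, and likeness without L_C replicate 4 were added after seeing the data.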

Additional observations from a re-analysis of the deposited data

Results flagged for a closer look

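In each of the 36 sets of 4 libraries (9 cathepsins in 4 groups), the gap of the highest or lowest library to its neighbour was divided by the range of the set. It exceeded Dixon's 95% critical value in 4 of them, where chance alone gives about 1 in 20. Ctsa in L_C replicate 4 had 2296.36 CPM, with 1832 to 1856 in the other L_C libraries. Ctsd in L_C replicate 4 had 15090.8 CPM, with 20767 to 21785 in the others. Ctsz in L_C replicate 4 had 1963.96 CPM, with 1698 to 1740 in the others. Ctsc in L_O replicate 1 had 479.71 CPM, with 427 to 436 in the other L_O libraries. Of the 4, 3 are the library with the highest mitochondrial share, 3.71%. In limma-voom with array quality weights L_C replicate 4 received a weight of 0.0925, against 0.732 to 1.56 in the other 15 libraries.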

How the results depend on the processing

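Of the alternative values for member comparisons past the threshold, 418 kept direction and call, 24 kept the direction but not the call, and 0 turned. For those not past it, 678 kept their side, 14 passed with the same sign and 27 changed sign. Among the sign changes, Ctsd in L_O against L_C without L_C replicate 4 also passed (-0.073, edgeR adjusted p = 0.0127). Same-numbered libraries did not deviate together (r from -0.164 to 0.0666 over 24 pairs, and 3 of 16 libraries correlated best with their own number). No shared deviation by number was seen, but this cannot tell whether same-numbered libraries shared mice or a culture day. The replicate block left every member call in place, with 2873, 3400, 750 and 1632 genes past the threshold in H_O against H_C, L_O against L_C, H_O against L_O and H_C against L_C, and 0 for the interaction (2 without the block).
Genes past the threshold numbered 1846 with array weights and 1619 with 8 libraries in H_O against L_O (main 826; leave-one-out 526 to 1763) and 914 with 8 libraries in H_C against L_C (main 1728). The interaction had 94 with DESeq2, 0 with limma-voom, 75 with array weights and 0 to 53 with a library left out.
Cathepsins lower in H_O against H_C numbered 7 with array weights and with 8 libraries (main 4; leave-one-out 3 to 7), in L_O against L_C 3 with library totals (main 6), in H_O against L_O 2 with array weights (main 1; leave-one-out 1 to 2) and in H_C against L_C 1 with library totals and with 8 libraries (main 2; leave-one-out 1 to 2). Cathepsins higher in H_O against L_O numbered 1 to 2 with a library left out (main 2).
Sign changes were among differences not past the threshold in the main fit. In L_O against L_C, Ctsc was 0.077 with library totals and 0.01 with upper-quartile factors (leave-one-out -0.05 to 0.037), and Ctsd -0.058 with array weights (leave-one-out -0.073 to 0.087). In H_C against L_C, Ctsl was 0.024 with library totals, 0.001 with limma-voom and 0.013 with upper-quartile factors (leave-one-out -0.09 to 0.038), and Ctsh -0.089 to 0.015 with a library left out. For the interaction, Ctsa was -0.015 and Ctsk 0.048 with array weights, and leave-one-out gave -0.029 to 0.088 for Ctsa, -0.086 to 0.071 for Ctsk and -0.021 to 0.106 for Ctsl. The cause was not tested. Library totals alone raised the share of higher calls from 47.5 to 65.1% in H_O against H_C, from 46.5 to 67.2% in L_O against L_C and from 39.3 to 52.4% in H_C against L_C. Totals of 32596640 counts or more leave counting error small for all 9.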
